A study of Mus musculus with 2 samples.

Results

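The Hox genes encode homeodomain transcription factors that mark position along the body and the limbs, and their mRNA was followed here in dying osteoblasts, the cells that lay down bone, from old and from young mice. The members were all protein-coding genes of the 4 mouse Hox clusters, found by mapping the Ensembl identifiers of the deposited table to GENCODE symbols of the form Hoxa, Hoxb, Hoxc or Hoxd followed by a number. They came to 39 genes of 55487 identifiers. On GRCm38, 11 lie in HoxA (chr6:52155590-52260880), 10 in HoxB (chr11:96194316-96368256), 9 in HoxC (chr15:102921103-103036852) and 9 in HoxD (chr2:74668310-74765142). RNA sequencing gave 1 library of old-mouse cells, whose treatment label reads day 5, and 1 library of young-mouse cells, whose label reads day 0, so that age and labelled day cannot be told apart. The steps given were the same for both groups, and the meaning of the labelled day was not given. Pieces of bone were placed in culture, and the cells that grew out and adhered were carried through 3 passages as marrow stromal stem cells. Then 3 days in osteogenic medium turned them towards osteoblasts. Exposure to 0.5 h of ultraviolet light made them apoptotic, with over 90% taking up Trypan Blue. The labels name no treatment besides, and strain, age in months, the bone used and the number of animals were not given in the sources used here. With 1 library per group no difference has a replicate check, and no test was run.

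Hox genes sit in clusters in the order in which they act from head to tail, and members in the same place of different clusters form a paralogue group, numbered 1 to 13. Groups with low numbers pattern the hindbrain, throat and neck, those in the middle the rib-bearing trunk, and those with high numbers the lower back, the tail and the limb. In the mouse limb, groups 9 and 10 act in the upper segment, group 11 in the forearm and lower leg, and group 13 in the hand and foot. Cells of the adult skeleton keep much of the Hox code of the place they came from, whereas the bones of the face and front of the skull form from neural crest that expresses no Hox gene.

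Reads assigned to genes came to 18114336 in the old and 16333396 in the young library, as worked out from the deposited FPKM values, which are fragments per kilobase of gene scaled to the library's total. Brackets hold 95% counting intervals, which cover counting error only and treat reads as independent. PCR copies are not independent molecules, so the intervals may be too narrow even for that error. Of 12 osteoblast markers 9 had a mean of at least 1 FPKM. The highest was Col1a1, at 6788 FPKM in the old and 8568 FPKM in the young library. Bglap (osteocalcin) rested on 6 reads in the old and 3 in the young library. Of short stretches of its transcripts, 55.2% also occur in transcripts of other genes. How reads over shared stretches were counted was not given in the sources used here, so its few reads may understate its level. Other osteoblast markers were low too: Alpl (3.28 FPKM old, 2.78 FPKM young), Phex (0.577 FPKM old, 0.213 FPKM young) and Ifitm5 (0.289 FPKM old, 0.0800 FPKM young). The shared part was 0 for Alpl, 0.418% for Phex and 27.6% for Ifitm5. Of 12 leukocyte markers 1 had a mean of at least 1 FPKM, Lyz2. Ptprc, which marks all leukocytes, had 0 reads in the old and 1 in the young library. The marker sums were 19.3 FPKM in the old and 21.5 FPKM in the young library for leukocytes, 0.337 FPKM in the old and 0.357 FPKM in the young for endothelial cells, and 3.04 FPKM in the old and 0.478 FPKM in the young for epithelial cells, the last mainly Krt14. The 9 osteoblast markers had a median log2 ratio of −0.08, with 4 above 0 and 5 below. Sp7, a regulator of osteoblast formation, was at 28.9 FPKM in the old and 55.5 FPKM in the young library, and Runx2, which acts before it, at 72.7 FPKM in the old and 92.1 FPKM in the young. Spp1 was at 1732 FPKM in the old and 224 FPKM in the young library, and Dmp1 at 4.85 FPKM in the old and 0.377 FPKM in the young, the 2 osteoblast markers at 2-fold. The cartilage markers Col2a1 (46.8 FPKM old, 53.3 FPKM young) and Sox9 (51.0 FPKM old, 44.9 FPKM young) were present in both libraries, with Acan at 0. The part of these cells in the Hox values was not tested. In these bulk samples fewer cells of a type and less RNA per cell cannot be told apart.

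Hox mRNA was scarce in both libraries and came from the HoxA, HoxB and HoxC clusters, with no read in HoxD. Of the 39 members, 23 had reads in at least 1 library and 16 were listed at 0 in both. Of the 23, 11 reached a mean of 1 FPKM over both libraries, the level used as the filter below. Over the 12561 genes past that filter the median mean level was 18.0 FPKM, which no member reached. The summed level of all members was 40.8 FPKM in the old and 41.2 FPKM in the young library, on 1213 reads in the old and 1110 in the young.

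**Figure D1:**
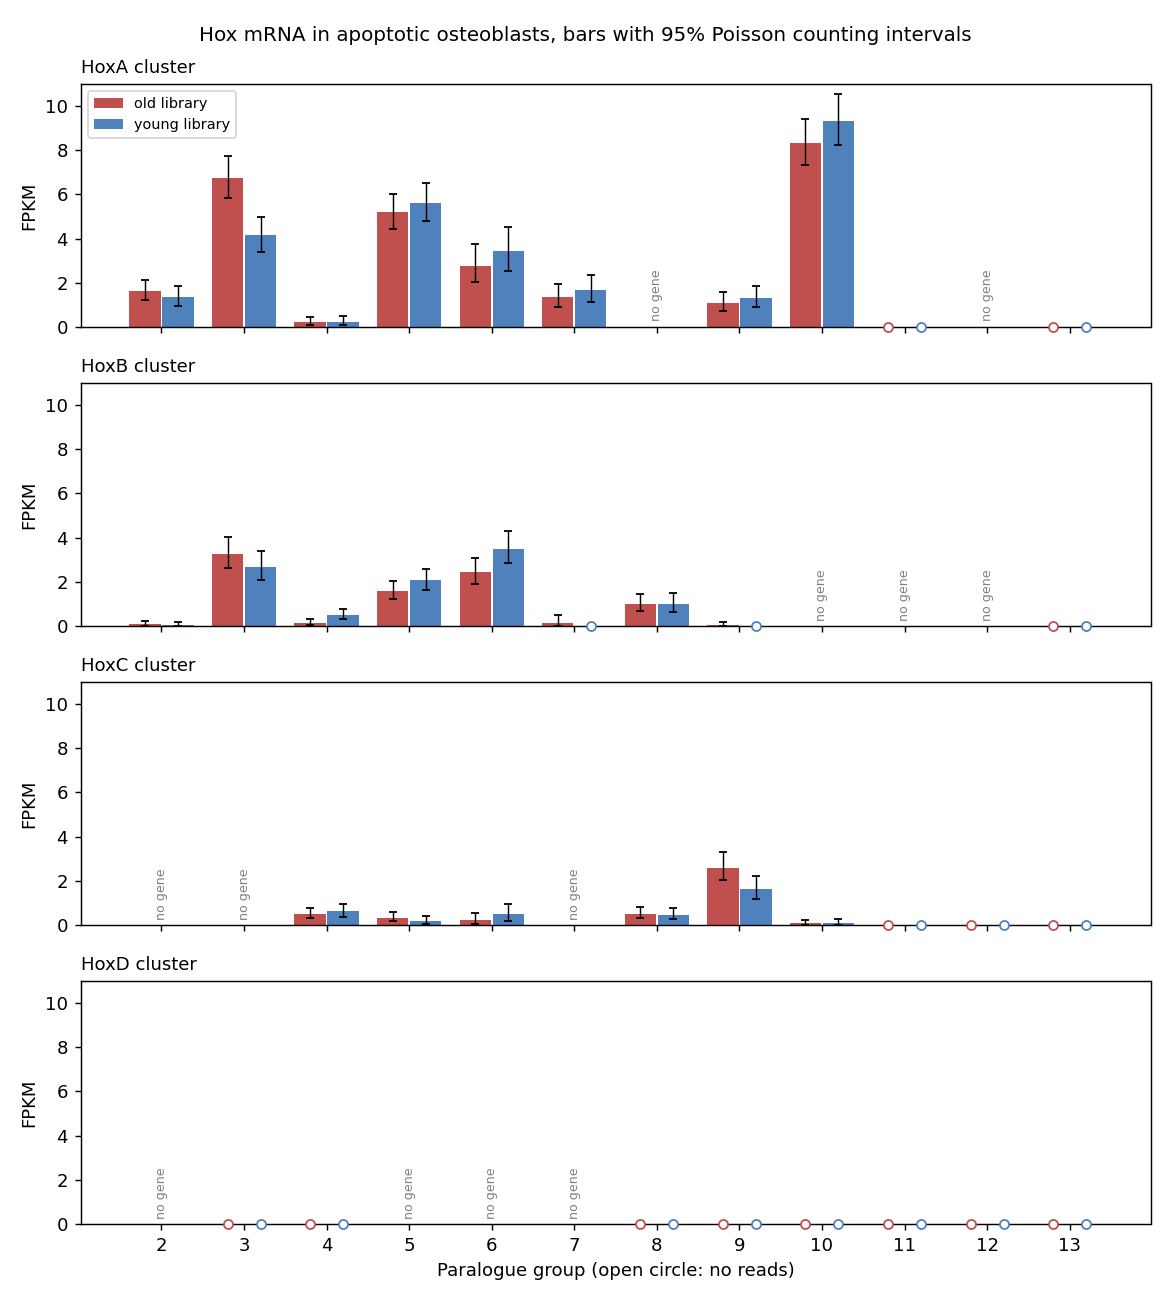
FPKM of the 36 Hox genes of groups 2 to 13 in the old (red, left bar) and young (blue, right bar) library, by cluster (panels) and paralogue group (horizontal axis), with 95% Poisson counting intervals as error bars. Hoxa10 is highest at 8.33 FPKM in the old and 9.32 FPKM in the young library, and the HoxD genes and all members of groups 11 to 13 stand at 0 (open circles).

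HoxA (on the minus strand) held the larger share of Hox mRNA, 68.0% of the summed FPKM in the old and 67.7% in the young library. Hoxa10, which suppresses ribs in the lower back and takes part in osteoblast differentiation in mice, was the highest member at 8.33 FPKM in the old library (255 reads) and 9.32 FPKM in the young library (257 reads). That placed it at rank 8278 in the old and 8117 in the young library among 21897 protein-coding genes. Hoxa5, needed for the vertebrae between neck and thorax, was at 5.18 FPKM on 176 reads in the old and 5.61 FPKM on 172 reads in the young library. Hoxa3, which patterns the third pharyngeal arch, was at 6.74 FPKM (200 reads) in the old and 4.15 FPKM (111 reads) in the young library. These 3 genes led both libraries, with Hoxa3 above Hoxa5 in the old and Hoxa5 above Hoxa3 in the young. Within a library, the FPKM ratio of Hoxa3 to Hoxa5 was 1.30 [1.06 to 1.60] in the old and 0.739 [0.577 to 0.944] in the young, and neither interval held 1. The ratio of Hoxa10 to Hoxa3 was 1.24 [1.02 to 1.5] in the old and 2.25 [1.79 to 2.83] in the young library.

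Levels did not run smoothly along HoxA. Hoxa4 lay between Hoxa3 and Hoxa5 at 0.208 FPKM in the old and 0.230 FPKM in the young library, on 6 reads in each. Hoxa6 and Hoxa7 of the trunk groups were at 2.78 and 1.36 FPKM in the old and 3.43 and 1.66 FPKM in the young library. Hoxa9, next to Hoxa10, was at 1.10 FPKM in the old and 1.31 FPKM in the young library. On the head side, Hoxa2, which shapes the skeleton of the second pharyngeal arch, was at 1.62 FPKM in the old and 1.35 FPKM in the young library. Beyond Hoxa10 there were no reads: Hoxa11 of the forearm and lower leg and Hoxa13 of the hand and foot were listed at 0, which allows up to 0.0755 and 0.147 FPKM in the old and 0.0838 and 0.163 FPKM in the young library. Each such limit is the value of 3 reads. Of the exon bases of Hoxa11, 35.0% are shared with the antisense gene Hoxa11os, which was also at 0.

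HoxB contributed 21.5% of Hox FPKM in the old and 23.8% in the young library. Its leading members were Hoxb3 (3.28 FPKM in the old and 2.69 FPKM in the young library), Hoxb6 (2.45 FPKM old, 3.50 FPKM young) and Hoxb5 (1.60 FPKM old, 2.07 FPKM young), which act from the neck to the thorax. Hoxb8, of the trunk, was at 1.01 FPKM in the old and 0.993 FPKM in the young library and lay just under the filter, and Hoxa9, with a mean of 1.20 FPKM, lay just above it. Hoxb4, Hoxb2, Hoxb7 and Hoxb9 had at most 21 reads in a library, and Hoxb1 and Hoxb13 had none. HoxB reads thus lay mainly in groups 3, 5, 6 and 8. HoxC contributed 10.5% in the old and 8.47% in the young library, with Hoxc9, of the thorax, its highest member at 2.61 FPKM in the old and 1.63 FPKM in the young library. Hoxc4 was at 0.511 FPKM in the old and 0.627 FPKM in the young library, and Hoxc8 at 0.513 FPKM in the old and 0.479 FPKM in the young. Hoxc5, Hoxc6 and Hoxc10 had at most 11 reads in a library, and Hoxc11, Hoxc12 and Hoxc13 had none.

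The HoxD cluster on chromosome 2 stood apart from the other clusters. All 9 of its genes, Hoxd1, Hoxd3, Hoxd4 and Hoxd8 to Hoxd13, were listed at 0 in both libraries, with limits of 0.0654 to 0.10 FPKM in the old library and 0.0725 to 0.111 FPKM in the young library. Of the genes around the cluster, Evx2, a homeobox gene next to Hoxd13, was also at 0 in both libraries. Lnpk, beyond Evx2, was at 14.7 FPKM in the old and 14.9 FPKM in the young library, and Mtx2, on the other side, at 23.6 FPKM in the old and 29.7 FPKM in the young. Inside it, 1 of 10 other annotated genes had reads, the antisense RNA Hoxd3os1 with 10 in the old and 4 in the young library. A value of 0 was uncommon in gene families that every cell uses. Of 198 ribosomal, mitochondrial ribosomal, proteasome and RNA polymerase II genes, 2 were at 0 in both libraries (Mrpl53 and Psma8), against 31.9% of all protein-coding genes. These families were not matched to Hox genes in level, so they do not show how often a gene of low level is listed at 0. Hoxd3 and Hoxd4 share 62.8% and 52.3% of their exon bases with other genes, and the way reads over shared bases were counted was not given in the sources used here. For Hoxd1, Hoxd8, Hoxd9, Hoxd12 and Hoxd13 no exon base is shared.

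The start regions of 2 paralogues, 1 with reads and 1 without, are shown because group 10 has its highest member in HoxA and a gene with no read in HoxD. The 250 bases before the start, 5′ to 3′, with every CG in capitals, come from RefSeq on GRCm38.p6: that of Hoxa10 (the start nearest the end of the gene) is chr6:52234940-52235189 on the minus strand, and that of Hoxd10 is chr2:74691641-74691890 on the plus strand.
Hoxa10: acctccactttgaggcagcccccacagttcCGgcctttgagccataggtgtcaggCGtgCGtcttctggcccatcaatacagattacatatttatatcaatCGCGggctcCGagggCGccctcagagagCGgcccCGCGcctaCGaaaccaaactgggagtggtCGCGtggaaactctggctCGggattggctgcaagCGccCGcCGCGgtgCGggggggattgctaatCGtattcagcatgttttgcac
Hoxd10: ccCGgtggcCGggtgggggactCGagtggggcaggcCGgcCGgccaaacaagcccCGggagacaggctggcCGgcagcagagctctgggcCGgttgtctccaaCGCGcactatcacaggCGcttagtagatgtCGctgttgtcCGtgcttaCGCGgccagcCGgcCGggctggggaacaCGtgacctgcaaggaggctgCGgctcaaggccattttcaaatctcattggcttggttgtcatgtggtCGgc

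Both windows shown held 20 CG dinucleotides, the sites at which mammalian DNA is methylated, with a GC content of 59.2% for Hoxa10 and 65.6% for Hoxd10. The table holds another window of Hoxa10, at its outer start (chr6:52240855-52241104), with 7 CG and a GC content of 51.6%, so the equal counts belong to the start that was shown. Windows were found for 22 members. The 10 windows of the 9 HoxD genes had a median of 12.5 CG (2 to 31), and the 11 windows of the 10 members with reads had a median of 12 (3 to 28). Over all 32851 windows in the table the median was 6. The TATA motif TATAAA, searched on both strands with no other motif, was in 4 of 24 Hox windows, the Hoxa10 window shown among them, and in 12.4% of all windows. These counts describe letters in the windows and nothing of methylation or binding, which were not measured.

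Grouped by place along the body axis, reads ended after group 10. In groups 11 to 13 none of the 9 members of any cluster had a read. Group 10 held 8.42 FPKM in the old and 9.41 FPKM in the young library, nearly all from Hoxa10. Group 3 (Hoxa3, Hoxb3 and Hoxd3 at 0) held 10.0 FPKM in the old and 6.84 FPKM in the young library, group 5 held 7.12 FPKM in the old and 7.85 FPKM in the young, and group 6 held 5.45 FPKM in the old and 7.42 FPKM in the young. Groups 2, 4, 7 and 8 each held less than 2 FPKM in either library. Group 9 was at 3.76 FPKM in the old and 2.93 FPKM in the young library.

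**Figure D2:**
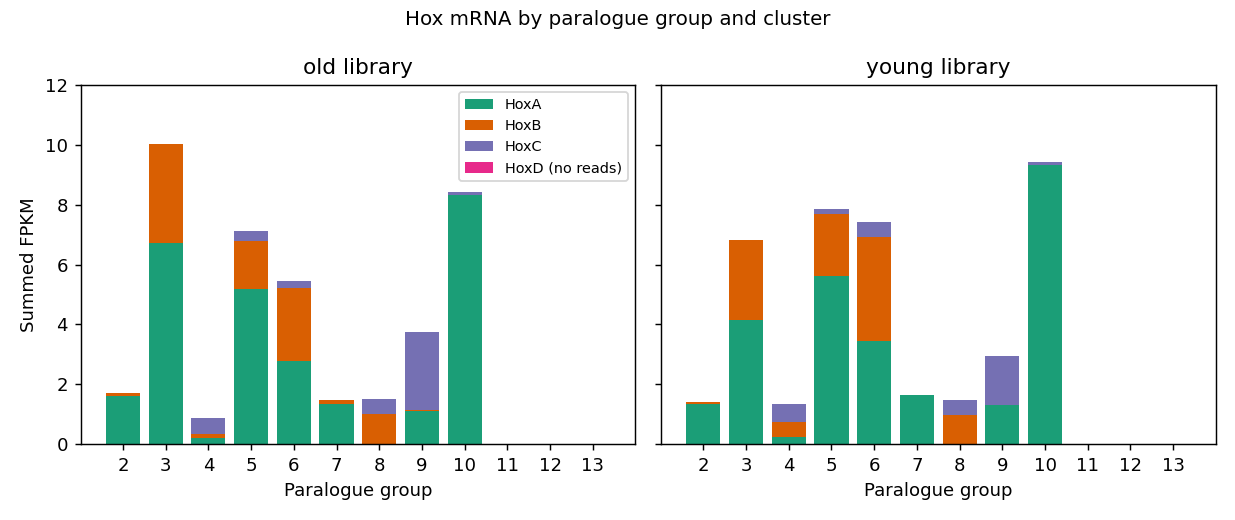
Summed FPKM of paralogue groups 2 to 13 (horizontal axis) in the old (left) and young (right) library, with colours for the 4 clusters. Groups 3, 5, 6 and 10 are highest in both libraries, HoxA makes up the largest part of groups 3, 5 and 10, and groups 11 to 13 are at 0.

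The design sets the old library against the young one. The Hox profile was alike in outline in the 2 libraries: 4 of the 5 highest genes were the same, and HoxA led and HoxD was at 0 in each. It was not alike in every paralogue group, as the ratios by group given below show. No member past the filter differed by 2-fold, but few of all genes past it did, so that count is not particular to Hox genes. The same limit holds for each count of 0 at 2-fold in the other gene sets below. Among the members past the filter, the widest differences were those of Hoxa3 and Hoxc9, higher in the old library, and of Hoxb6, lower there, each under 2-fold. A gene was counted as different at 2-fold or more on the log2 scale of FPKM + 1, which understates the differences of low genes. Among the 12561 genes past the filter, 1.97% were that much higher and 0.868% that much lower in the old library. Of the 11 Hox genes past this filter, 0 were higher and 0 lower at 2-fold, 10 lay within 1.5-fold, 4 had log2 ratios above 0 and 7 below. Their median log2 ratio was −0.13, with a range of −0.38 to 0.59, against a median of −0.07 with an SD of 0.40 over all genes tested. Of all genes tested, 90.0% lay within 1.5-fold. Over the 23 members with reads, Pearson r of log2(FPKM + 1) between the libraries was 0.966 and Spearman rho 0.954, a description across genes that share library and depth. The remaining 12 members with reads did not pass the filter.

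Hoxa3 had the highest log2 ratio of the 11, 0.59. Its 200 reads in the old and 111 reads in the young library gave an FPKM ratio of 1.62 [1.28 to 2.07]. Hoxc9, with 71 reads in the old and 40 in the young library, gave 1.60 [1.07 to 2.42]. Hoxb6 was the lowest of the 11 at a log2 ratio of −0.38, its 73 reads in the old and 94 in the young library giving 0.700 [0.509 to 0.961]. Among the lower members, Hoxb4 had 7 reads in the old and 21 in the young library, a ratio of 0.301 [0.108 to 0.734]. For these 4 genes the interval lay to one side of 1, with 2 above and 2 below; for the other 17 members with reads in both libraries it held 1. The intervals were not adjusted for their number, and they compare the 2 libraries and not the ages. Hoxa10 (0.895 [0.749 to 1.07]) and Hoxa5 (0.923 [0.744 to 1.15]), the members with the most reads beside Hoxa3, were close to even.

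**Figure D3:**
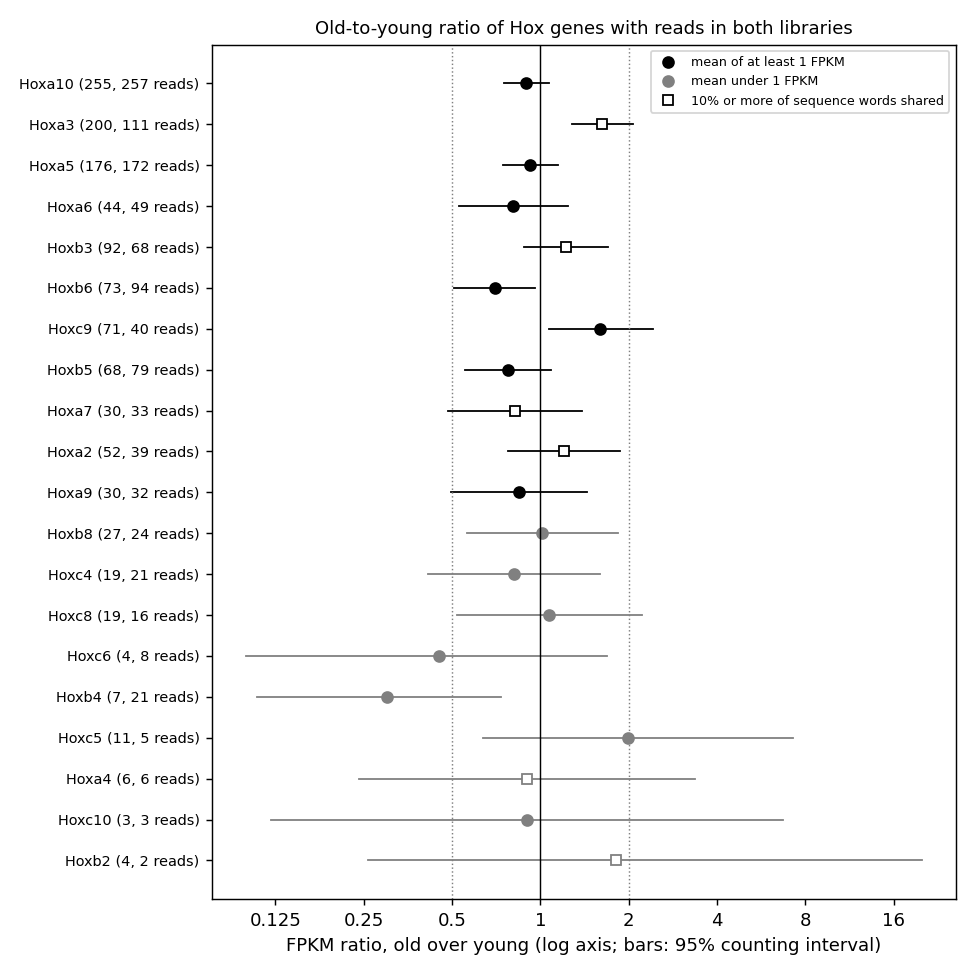
FPKM ratio, old over young (log axis), of 20 Hox genes with reads in both libraries, from the highest mean level at the top to the lowest at the bottom, with 95% counting intervals and reads (old, young) beside each name. Intervals of Hoxa3 and Hoxc9 lie above 1 and those of Hoxb6 and Hoxb4 below it, and intervals widen as reads become fewer.

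Hoxa3 lies among overlapping genes. Of its exon bases, 27.1% are also exon of other genes, among them the antisense RNAs Hoxaas2 and Hoxaas3, and for Hoxb3, with a ratio of 1.22 [0.882 to 1.69], the figure is 52.9% through the antisense RNA Hoxb3os. Use of strand is not stated, so reads of a gene and its antisense partner cannot be told apart. The antisense genes themselves had few reads: Hoxaas2 9 in the old and 6 in the young library, Hoxaas3 2 in the old and 0 in the young, and Hoxb3os 2 in the old and 5 in the young. Of the exon bases of these antisense genes, 15.0% in Hoxaas2, 30.7% in Hoxaas3 and 76.2% in Hoxb3os are overlapped. The counting of shared bases was not given, so their reads may be understated. Gm28308, a protein-coding gene that overlaps Hoxa3 on the same strand, had no read, with 100% of its exon bases overlapped. The part of the overlap in the Hoxa3 value was not tested. Hoxc9, Hoxb6 and Hoxb4 share no exon base with another gene. Of 39 members, 10 had 10% or more of their 50-base words in another gene's transcripts, and the genes sharing words with Hoxa3, Hoxb3, Hoxa2 and Hoxa7, the 4 of these past the filter, were overlapping neighbours.

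By cluster, the summed FPKM had an old-to-young ratio of 0.996 in HoxA, 0.894 in HoxB and 1.23 in HoxC. On summed reads scaled to depth the ratios were 1.0 [0.906 to 1.11], 0.861 [0.727 to 1.02] and 1.23 [0.935 to 1.63]. For all members together it was 0.985 [0.908 to 1.07]. By paralogue group, the same ratio was 1.47 [1.22 to 1.78] in group 3, 0.601 [0.372 to 0.960] in group 4 and 0.723 [0.564 to 0.924] in group 6. For groups 2, 5, 7, 8, 9 and 10 the interval held 1.

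Besides the 39 members, 46 annotated genes lie within the 4 clusters, most of them antisense, long non-coding or small RNAs. Of these 46, 33 had no read in either library, and none reached a mean of 1 FPKM or 20 reads in all. Some known regulators of the clusters are named here after their values were seen. Hotair, a HoxC RNA reported to act on HoxD in human cells, had 5 reads in the old and 0 in the young library. Hotairm1, an antisense RNA of HoxA, had 6 reads in each library. The clusters also host the genes of miR-10 and miR-196, microRNAs that pair with Hox mRNAs, among them that of Hoxb8 for miR-196 in mice.

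The mature microRNAs are shown because each family repeats the Hox layout, with copies at matching places in different clusters. They come from RefSeq on GRCm38.p6, written 5′ to 3′ with the seed, bases 2 to 8, in capitals. The loci are chr11:96317186-96317208 for miR-10a-5p, chr2:74726074-74726096 for miR-10b-5p, chr11:96265187-96265208 for the HoxB copy of miR-196a-5p, all on the plus strand, and chr6:52230129-52230150 on the minus strand for miR-196b-5p.
miR-10a-5p: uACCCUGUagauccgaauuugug
miR-10b-5p: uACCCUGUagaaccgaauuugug
miR-196a-5p: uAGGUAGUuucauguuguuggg
miR-196b-5p: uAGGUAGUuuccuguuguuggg

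The 2 miR-10 forms share the seed ACCCUGU and differ by U12A, and the 2 miR-196 forms share AGGUAGU and differ by A12C, counted from 1 at the 5′ end with the a form first. Mir10a lies in HoxB between Hoxb4 and Hoxb5, and Mir10b in HoxD within the span of Hoxd4. Mir196a-1 and Mir196a-2 lie in HoxB and HoxC, and Mir196b lies in HoxA within Hoxa9. The rows of these 5 hairpin genes were at 0 in both libraries. Mature microRNAs are too short for an mRNA library and were not measured, so these rows say nothing of their level.

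Hox proteins bind DNA together with TALE homeodomain partners of the Pbx, Meis and Pknox families, and several of these were above the highest Hox gene in level. Of the 12 listed, 11 passed the filter, 0 were 2-fold higher and 0 lower in the old library, and the median log2 ratio was −0.06. Pbx2 and Pbx3 were at 43.4 and 36.2 FPKM in the old and 39.7 and 40.6 FPKM in the young library. Meis2 was at 33.5 FPKM in the old and 35.0 FPKM in the young library, whereas Meis1, a partner best known with Hoxa9 in blood, was at 2.32 FPKM in the old and 2.56 FPKM in the young. The lowest ratio was that of Meis3, at 33.3 FPKM in the old and 47.6 FPKM in the young library (ratio 0.699 [0.634 to 0.770]). Pbxip1, which binds Pbx proteins and holds back their activity, was at 91.5 FPKM in the old and 121 FPKM in the young library, and Tgif1, a TALE repressor, at 63.4 FPKM in the old and 53.1 FPKM in the young.

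Other genes that carry position in the skeleton were measured beside the Hox code. Of 35 listed factors of limb and trunk, 18 passed the filter with 0 at 2-fold in either direction and a median log2 ratio of −0.08, and 12 had no read. Prrx1 and Prrx2, homeobox genes of limb and face mesenchyme, were highest at 320 and 306 FPKM in the old and 227 and 254 FPKM in the young library. Irx3 and Irx5, which act in the early limb bud, were at 68.2 and 53.5 FPKM in the old and 75.9 and 73.0 FPKM in the young library. Shox2, of the upper limb segment, was at 28.8 FPKM in the old and 26.6 FPKM in the young library. The genes that set fore from hind limb had no reads: Tbx5, of the forelimb, and Tbx4 and Pitx1, of the hind limb, were listed at 0 in both. Dlx5, a homeobox gene of osteoblasts and jaw, was at 53.3 FPKM in the old and 83.2 FPKM in the young library (ratio 0.641 [0.597 to 0.688]).

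Of 21 listed factors of the cranial skeleton, 13 passed the filter, with 0 at 2-fold in either direction and a median log2 ratio of 0.05. Several of them also act in limb or trunk, so the list does not mark the skull alone. Six2, a homeobox gene of skull base and kidney, was at 107 FPKM in the old and 135 FPKM in the young library, a ratio of 0.794 [0.760 to 0.830]. Alx1 and Alx4, of the frontonasal mesenchyme, were at 22.0 and 15.7 FPKM in the old and 22.3 and 13.7 FPKM in the young library. Dlx2, of the jaw, was at 23.3 FPKM in the old and 30.6 FPKM in the young library. Lhx6, of the oral side of the jaw, was at 11.5 FPKM in the old and 5.43 FPKM in the young library, a ratio of 2.11 [1.79 to 2.50], and with a log2 ratio of 0.95 it lay just under 2-fold on the scale used. Otx2, of the forebrain, Barx1 and the neural crest genes Foxd3 and Sox10 were at 0. Otx1 was at 2.89 FPKM in the old and 3.10 FPKM in the young library. Pax3, listed under limb and trunk, was at 7.64 FPKM in the old and 8.60 FPKM in the young. Of 6 markers of Schwann and neural crest derived cells, 3 passed the filter. Their sum was 19.2 FPKM in the old and 21.1 FPKM in the young library over all 6.

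**Figure D4:**
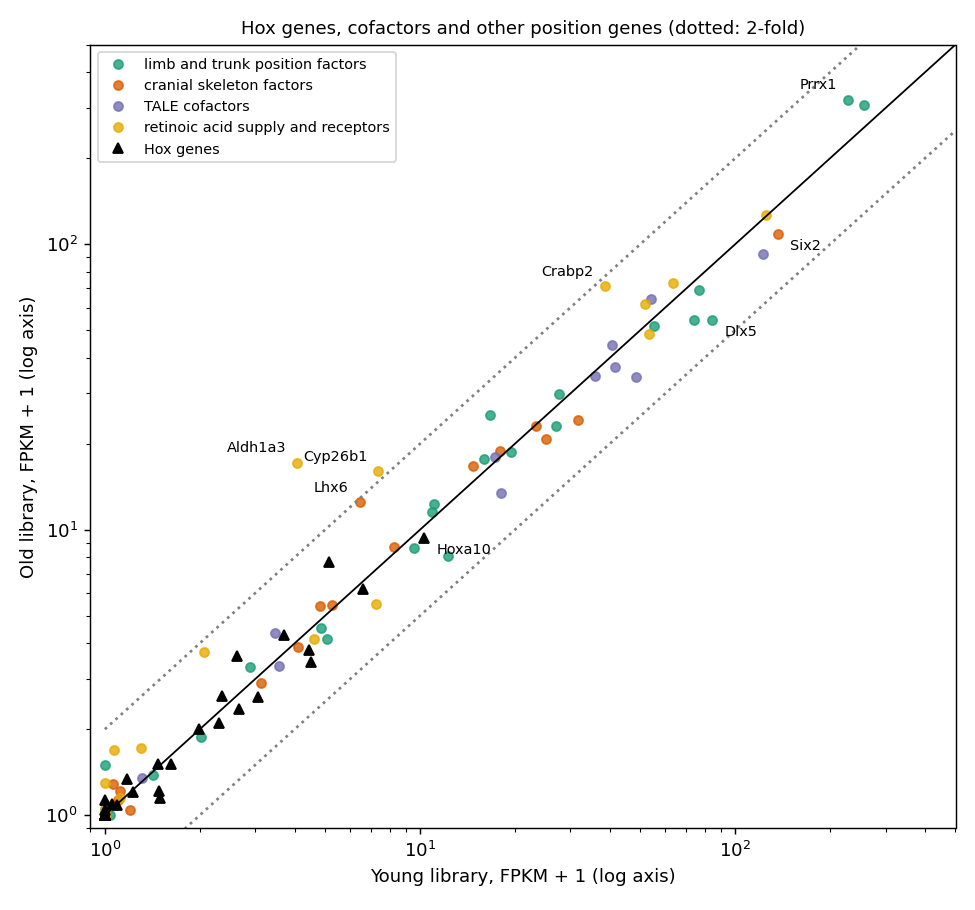
FPKM + 1 in the old (vertical axis) against the young library (horizontal axis), both log axes, for Hox genes of groups 2 to 13 (triangles) and genes of the 4 lists named in the legend, with the line of equality and dotted lines at 2-fold. Hox genes lie low and along the diagonal, and Aldh1a3 and Cyp26b1 lie beyond the upper dotted line.

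Hox clusters are kept silent by Polycomb complexes and kept active by Trithorax-type methyltransferases. Of 30 Polycomb genes, 29 passed the filter with 0 at 2-fold, 8 log2 ratios above 0 and 21 below. Their median was −0.09, against −0.07 over all genes tested. Ezh2, which writes the repressive mark, was at 49.6 FPKM in the old and 61.8 FPKM in the young library (ratio 0.801 [0.742 to 0.865]), and its partner Suz12 was at 51.6 FPKM in the old and 60.7 FPKM in the young. Cbx2 (9.78 FPKM old, 13.6 FPKM young) and Cbx8 (14.9 FPKM old, 20.5 FPKM young), which read that mark, had log2 ratios of −0.44 each, the lowest of the list. The highest levels were those of Cbx6 (129 FPKM old, 135 FPKM young), Bmi1 (115 FPKM old, 144 FPKM young) and Aebp2 (91.1 FPKM old, 75.0 FPKM young), and 20.3% of the words of Bmi1 are shared with other genes. Phf19, an accessory subunit, was at 2.46 FPKM in the old and 1.38 FPKM in the young library, with the highest log2 ratio, 0.54. All 18 Trithorax and Hox-activating genes passed, with 0 at 2-fold and a median of −0.04. Kmt2a, the methyltransferase best known for holding Hox genes active, was at 15.7 FPKM in the old and 15.1 FPKM in the young library, and Ctcf, a boundary factor of the clusters, at 80.5 FPKM in the old and 80.7 FPKM in the young. Mllt1 (114 FPKM old, 124 FPKM young) and Psip1 (86.5 FPKM old, 108 FPKM young), which work with Kmt2a-type complexes, and the complex subunit Dpy30 (61.5 FPKM old, 81.1 FPKM young) were the other genes of high level.

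Retinoic acid switches on Hox genes from the head end of the clusters in the embryo. Of the 18 listed genes for its supply and its receptors, 10 passed the filter. In the old library 2 were 2-fold higher and 0 lower, and the median log2 ratio was 0.23, with 7 above 0 and 3 below. Over all genes tested, 1.97% were 2-fold higher and 0.868% lower, and the median was −0.07. Aldh1a3, which makes retinoic acid, was at 16.1 FPKM on 431 reads in the old and 3.07 FPKM on 74 reads in the young library, a ratio of 5.25 [4.10 to 6.82] and a log2 ratio of 2.07. Cyp26b1, which breaks it down, was at 15.0 FPKM on 1002 reads in the old and 6.37 FPKM on 384 reads in the young library, a ratio of 2.35 [2.09 to 2.65]. Aldh1a1 was at 2.72 FPKM on 71 reads in the old and 1.06 FPKM on 25 reads in the young library. Its ratio was 2.56 [1.60 to 4.22], but with a log2 ratio of 0.85 it lay under 2-fold on the scale used. Crabp2, which carries retinoic acid to the nucleus, was at 70.1 FPKM in the old and 37.5 FPKM in the young library. The receptors Rarg (125 FPKM old, 124 FPKM young), Rxra (71.9 FPKM old, 62.4 FPKM young) and Rara (60.7 FPKM old, 50.6 FPKM young) lay within 1.5-fold. The 3 genes with log2 ratios below 0 were Dhrs3, Rdh10 and Rxrb. Their FPKM ratios were 0.721 [0.552 to 0.941] for Dhrs3, 0.874 [0.698 to 1.09] for Rdh10 and 0.902 [0.833 to 0.977] for Rxrb.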

How the data were processed

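RNA sequencing of apoptotic osteoblasts gave 1 library from old and 1 from young mice, grouped by the age label. The deposited table holds FPKM values made by the authors. Per the submitters' processing notes, fastp, STAR, HTSeq and edgeR and the build mm10 were used; their roles, the annotation release, filters and the use of strand were not given in the sources used here. GENCODE M21 on GRCm38 supplied symbols, positions and lengths, and named 55141 of 55487 identifiers. Each Hox symbol had 1 identifier.

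Reads were recovered by taking the rounded mean transcript length as gene length: 97.6% of values above 0 came out whole within 0.01 in each library. They served for exact Clopper-Pearson intervals of ratios, Poisson intervals of levels and limits for values of 0 (3 reads), never for a test. Differences were log2 ratios of old to young on FPKM + 1, called at 2-fold where the mean level reached 1 FPKM. Sequence sharing was the share of 50-base words, taken every 25 bases, found in other genes' transcripts on either strand. The functions were tested on simulated data. Members were described by cluster and group, with full values at a mean of at least 1 FPKM; from each list, members at 2-fold and up to 4 with the highest levels were to be named, and further ones were chosen for their roles with values known. Members and lists were chosen with earlier results of these data known. Alternatives were pseudocounts of 0.1 and 5, no filter or a mean of 10 FPKM, rescaling without the 10 most abundant genes, centring, and leaving out members with shared words or exons. Python 3.11.15, pandas 2.3.3 and SciPy 1.17.1 were used. The values of a few genes are not reported here, though they stand in counts and sums. Protein sequences were not used here.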

Additional observations from a re-analysis of the deposited data

How the results depend on the processing

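No paired analysis was possible because there is 1 library per group and the labels give no replicate numbers. No Hox gene was at 2-fold in either direction under any of the alternatives, none being left to count where a mean of 10 FPKM was required, and the 44 recalculated log2 ratios of single Hox genes each moved by less than their counting interval. The pseudocount of 0.1 kept the filter of 1 FPKM, and the setting with no filter kept a pseudocount of 1. Members under 1 FPKM were thus either left out or had their differences damped, so the alternatives cannot decide for them. Hoxb4, with an FPKM ratio of 0.301, had a log2 ratio of −0.38 on FPKM + 1. The median log2 ratio of Hox genes was 0 with no filter, since 16 members are at 0 in both libraries. Leaving out members with 10% or more of shared words, or of overlapped exon bases, each left 7 members past the filter of 1 FPKM. The summed FPKM ratio was then 0.886 for all members and 0.870 for HoxA, for want of Hoxa3, Hoxa2, Hoxb3 and others. Among the lists, 1 cranial factor (Lhx6) was at 2-fold at a pseudocount of 0.1. In place of 2 retinoic acid genes, 3 were at 2-fold with a pseudocount of 0.1, and 1 with a pseudocount of 5 and likewise with a filter of 10 FPKM. Centring took the summed FPKM ratio across 1, from 0.991 to 1.04 for all members and from 0.996 to 1.04 for HoxA. These sums stood among the 62 of 72 recalculated counts, medians and sums rated as unchanged. The rest of the 62 kept their direction or, as counts, stayed within 1.5 times. Depth limits the members with few reads: 12 with reads lay under 1 FPKM, with at most 30 reads in a library.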

Other observations

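The protein-coding genes that start within 500 kb of the clusters gave a view of the neighbourhood that the Hox values do not. Of 48 such genes, 29 had a mean of at least 1 FPKM, none at 2-fold, with 6 log2 ratios above 0 and 23 below and a median of −0.14, against −0.07 over all genes tested. The RNA-binding gene Hnrnpa1 beside HoxC was at 415 FPKM in the old and 440 FPKM in the young library, and Skap2 beside HoxA at 36.1 FPKM in the old and 39.9 FPKM in the young. Evx1 and Evx2, homeobox genes at the posterior ends of HoxA and HoxD, had no read in either library. The ParaHox genes, sister genes of the Hox clusters that act in the gut and nervous system, were also near absent, with Cdx1 at 6 reads in the old and 3 in the young library and Cdx2, Cdx4, Gsx1, Gsx2 and Pdx1 at 0. Meox1, a homeobox gene of the somites, had 20 reads in the old and 0 in the young library.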
